A study of Mus musculus with 12 samples.

Results

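CSP and Thy osteoprogenitors, sorted by flow cytometry from the bones of JUN-inducible mice, were compared on 8 of the 12 expression arrays of the series, 4 arrays of each population. The arrays were chosen by the population named in their labels. The remaining 4 arrays carry a further population, SSC, and entered the fit to estimate the spread and as a reference level. Each of 4 mice gave 1 CSP and 1 Thy array. Mice 3 and 3b carry the label -JUN, read here as no induction, and mice 4 and 7 the label JUN. Per the labels, JUN was induced in pups through doxycycline in the mother's drinking water, and the design text gives 2 days of induction before the sort. All groups were of the JUN-inducible genotype. The tissue label names bones of the limbs and skull cap, the scapula, vertebrae and ribs. What the labels leave unsaid is the promoter of the transgene, the strain, the exact age and whether mothers of the -JUN mice drank doxycycline. The labels write CSP and the series' design text BCSP.

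In the published scheme of mouse skeletal progenitors, a skeletal stem cell gives rise to the bone, cartilage and stromal progenitor (BCSP), which in turn gives rise to more restricted cells, among them a fraction that carries the surface glycoprotein Thy1 (CD90). Thy1 is not restricted to skeletal progenitors, and is also found on neurons, fibroblasts and cells of the vessel wall. Bone is innervated and vascularised, with Schwann cells that ensheathe its nerve fibres and pericytes that wrap its capillaries.

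Thy1 checked the labels. Its log2 values were 8.04, 8.11, 8.09 and 9.63 in the CSP arrays of mice 3, 3b, 4 and 7, and 12.80, 12.99, 13.30 and 12.83 in their Thy arrays. Every Thy array lay above every CSP array, and the CSP array of mouse 7 stood above the other CSP arrays. Thy1 is taken to be the marker on which Thy cells were sorted, so its difference of 4.51 ± 0.34 (log2, Thy minus CSP ± standard error) is no finding. Of the other genes whose products are used to gate such cells, Eng read 9.30 to 10.40 in CSP and 9.07 to 10.24 in Thy. The leukocyte gate gene Ptprc read at most 6.54 in all 8 arrays, below every array's median of 7.65 to 7.76. Jun read 12.82 to 13.37 in CSP and 12.81 to 13.65 in Thy, and whether its probe set reads the transgene was not tested. Xist, transcribed from the inactive X chromosome, read 13.12 in CSP and 12.49 in Thy of mouse 3, against at most 7.29 in the arrays of mice 3b, 4 and 7, so mouse 3 differed from the others in sex. Correlations between the 8 arrays across probe sets ran from 0.902 to 0.979. The Thy array of mouse 4 correlated with the others at no more than 0.946 and lay farthest out on the first principal component, which held 40.6% of the variance. In sorted bulk samples, fewer cells of a type and less RNA per cell cannot be told apart.

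Far more genes were higher in Thy than in CSP. Of 12516 genes tested, 124 (0.991%) differed in limma at a Benjamini-Hochberg adjusted p under 0.05. Of these, 113 (0.903%) were higher in Thy and 11 (0.0879%) higher in CSP. The genes higher in Thy had a median of 3.59-fold, against a median log2 difference of 0.04 over all genes tested. None of the 124 overlapped between the 4 CSP and the 4 Thy arrays. Their shared direction in the 4 mice and in both arms follows from this and adds no support. Over all genes tested, 4.29% had every Thy array above every CSP array, and 1.82% the reverse. In the 113 genes the median difference was 2.22 in mouse 3, 1.81 in mouse 3b, 1.98 in mouse 4 and 1.40 in mouse 7. With the mouse as a block, 72 genes (0.575%) passed, 61 (0.487%) higher in Thy and 11 (0.0879%) higher in CSP, and 60 of the 124 were among them. Of the 124, 46 also passed whichever of the 8 arrays was left out. Leaving out 1 array moved the count from 52 (49 higher in Thy and 3 in CSP) without the CSP array of mouse 4 to 128 (103 and 25) without the Thy array of mouse 7. Without the Thy array of mouse 4 it was 87 (81 and 6). The SSC mean lay between the CSP and Thy means for 80 of the 113 genes higher in Thy, above Thy for 22 and below CSP for 11.

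**Figure D1:**
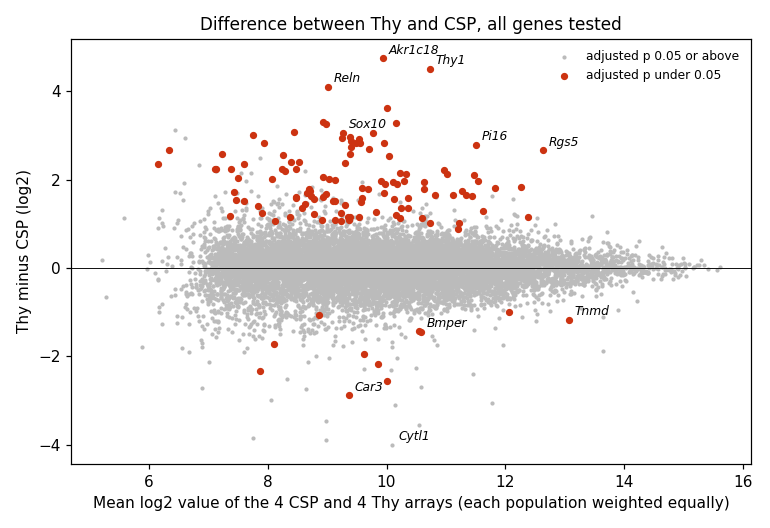
Difference between Thy and CSP (log2, vertical axis) against the mean log2 value over the CSP and Thy arrays (horizontal axis), 1 point per gene. Red points are the 124 genes with an adjusted p under 0.05, of which 113 lie above 0 and 11 below; Cytl1, at -4.00, is labelled although it did not pass.

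Among the genes that passed, the largest differences outside Thy1 belonged to Akr1c18, Reln, Ednrb, Gjc3 and Col20a1. Some cartilage genes that did not pass, such as Cytl1 (-4.00) and Matn3 (-3.85), had larger ones than several of these. Genes that passed and are on no glial or nerve list or group come first. Values that follow are listed for mice 3, 3b, 4 and 7 in that order. Akr1c18, which encodes an enzyme that inactivates progesterone, read 7.34, 7.06, 7.86 and 7.98 in CSP and 12.80, 11.03, 12.56 and 12.86 in Thy. All Thy arrays stood far above all CSP arrays, with that of mouse 3b the lowest of them, and the difference was 4.75 ± 0.37 or 27.0-fold (limma, adjusted p = 7.69e-05). Sostdc1, a secreted antagonist of BMP and Wnt signals, read 8.14, 7.97, 8.08 and 8.77 in CSP and 12.31, 10.65, 11.18 and 11.05 in Thy. Its difference was 3.06 ± 0.37 (adjusted p = 0.00388), and the SSC arrays, at 10.33 to 11.74, also lay above every CSP array. Col20a1, a fibril-associated collagen, differed by 3.29 ± 0.44 and Wnt2, a Wnt ligand, by 2.83 ± 0.36. Each of these genes passed whichever array was left out and with the mouse block. Cmah, an enzyme that hydroxylates sialic acid, differed by 3.07 ± 0.61 (adjusted p = 0.0365). The call of Cmah was lost without any of 6 arrays, all but the CSP arrays of mice 3 and 4 (adjusted p from 0.0678 to 0.121).

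**Figure D2:**
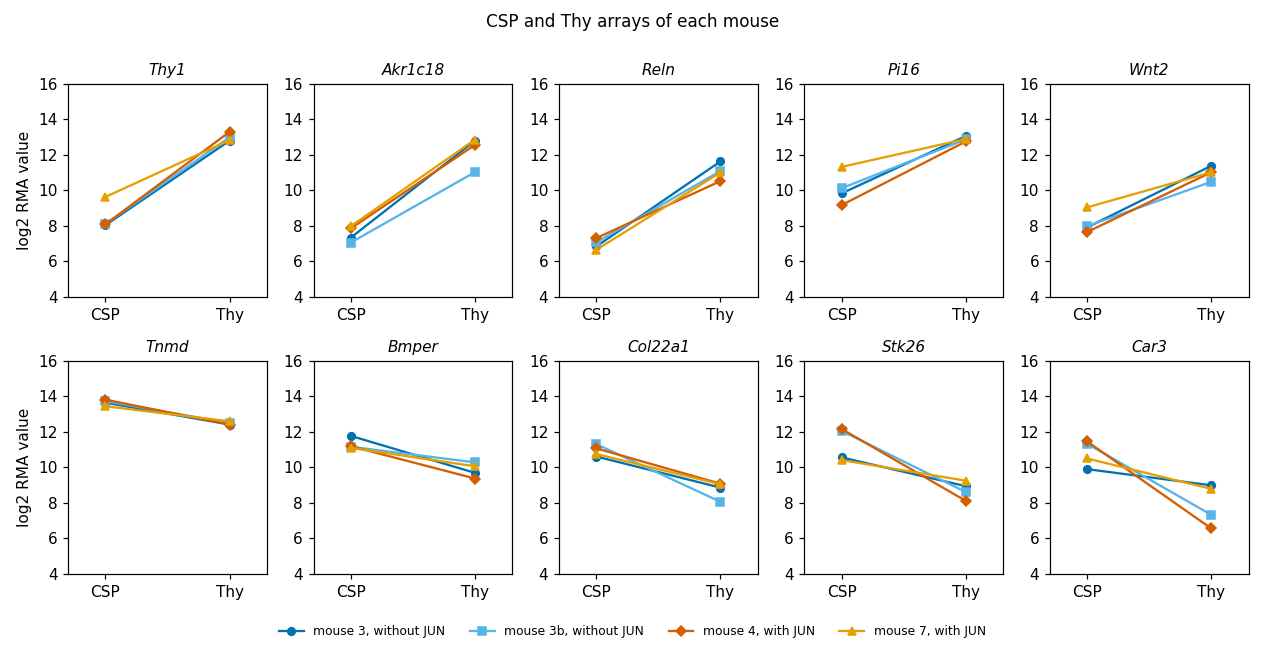
Log2 values of 10 genes in the CSP array (left) and the Thy array (right) of each mouse, joined by a line per mouse. In the upper row every Thy array lies above every CSP array, as for Thy1 from 8.04 to 9.63 in CSP and 12.80 to 13.30 in Thy; in the lower row the order is reversed, as for Tnmd.

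Genes of Schwann cells and other glia were higher in Thy. Of 29 genes on a list of such markers, 25 had a probe set and 24 passed the filter on dim values. Of these, 10 were higher in Thy and 0 in CSP at an adjusted p under 0.05, against 0.903% of all genes. This list and the others were chosen with earlier results of these data known, so such shares are no independent support. The median difference over the 25 measured members was 1.44, against 0.05 over all 18193 measured genes. By mouse the median was 2.18, 1.37, 0.72 and 1.24 in mice 3, 3b, 4 and 7. The mean of the list was 8.21 to 8.35 in the CSP arrays and 9.10 to 10.54 in the Thy arrays, without overlap. The SSC arrays, at 9.51 to 10.26, also lay above every CSP array.

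Sox10, the transcription factor that specifies glia of the peripheral nerve, read 7.90, 6.66, 8.30 and 8.07 in CSP and 11.10, 10.71, 10.58 and 10.79 in Thy. CSP values were near the array medians and all Thy values well above them, with a difference of 3.06 ± 0.35 (limma, adjusted p = 0.00272). Erbb3, the receptor through which axonal neuregulin keeps Schwann cells alive, read 8.61, 8.30, 8.65 and 8.62 in CSP and 12.22, 11.62, 10.72 and 10.90 in Thy, and was higher by 2.82 ± 0.38. Among genes of the myelin sheath and its contacts with the axon, Gjc3, a connexin of glial gap junctions, was higher by 3.30 ± 0.42, Kcna1, a potassium channel subunit of axons and glia, by 2.97 ± 0.46 and Cadm4, an adhesion molecule of Schwann cells, by 2.95 ± 0.46. The myelin protein gene Mal was higher by 2.91 ± 0.43 and the ADP-ribosyltransferase gene Art3 by 2.83 ± 0.36. These 7 genes passed whichever array was left out and with the mouse block. In all 10 genes that passed, every SSC array lay above every CSP array. In 6 of the 10 the SSC mean lay at or above the Thy mean, so high values were not particular to Thy.

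Mbp, the myelin basic protein gene, read 7.95, 8.20, 7.29 and 8.41 in CSP and 12.76, 10.75, 9.05 and 10.81 in Thy. The Thy array of mouse 3 was the highest and that of mouse 4 the lowest, and the difference of 2.88 ± 0.52 (limma, adjusted p = 0.0217) did not pass with the mouse block (0.0530). The call was also lost without the CSP array of mouse 3 (0.0844), 3b (0.0752) or 4 (0.0904) or the Thy array of mouse 7 (0.0532). Mag, an adhesion protein of myelin, read 5.80, 5.55, 5.91 and 6.49 in CSP, below the array medians, and 10.53, 8.34, 7.54 and 7.66 in Thy. It passed the filter on dim values only through arrays outside CSP. Its difference of 2.58 ± 0.51 (adjusted p = 0.0365) was largest within mouse 3, at 4.73. It did not pass with the mouse block (0.128) or without the CSP array of mouse 3 (0.125), 3b (0.117) or 4 (0.0982) or the Thy array of mouse 3b (0.0653). The zinc finger gene Zfp536 differed by 2.23 ± 0.46 (adjusted p = 0.0446), a call lost without any array but the Thy array of mouse 4 (0.0528 to 0.165). Its CSP values of 5.39 to 6.69 were below the array medians, so it too passed the filter only through arrays outside CSP. Other list members went different ways. The differences were 1.44 ± 0.40 for the adhesion gene L1cam and 1.12 ± 0.28 for Foxd3, a regulator of neural crest and early glia (adjusted p = 0.150 and 0.101). The calcium-binding protein gene S100b stood at -0.86 ± 0.59 and the myelin gene Ncmap at -0.95 ± 0.70 (adjusted p = 0.578 and 0.603). S100b is also a gene of chondrocytes. Both S100b and Ncmap were highest in the CSP arrays of mice 3b and 4, as the cartilage genes were. Whether cartilage cells account for the values of either gene was not tested.

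Words bound by the family of Sox10 were searched for upstream of the glial genes. Sox10 encodes a factor of the HMG-box family, which binds words such as ACAAAG or ACAATG. Of the 10 glial genes that passed, 6 had a promoter entry in the RefSeq table (build GRCm38.p6). In 3 of the 6 at least 1 listed start had ACAAAG or ACAATG, on either strand, within the 250 bases before it. The same held for 28.2% of the 27025 genes of the table. A match says only that the letters are present. For each of these genes 1 window that holds a word is shown, 5′ to 3′, with the word in capitals. They are Mag (chr7:30914864-30915113, minus strand), Art3 (chr5:92387884-92388133, plus strand) and Cadm4 (chr7:24481773-24482022, plus strand). The capitals read CTTTGT or CATTGT, the reverse complements of the words above.
Mag: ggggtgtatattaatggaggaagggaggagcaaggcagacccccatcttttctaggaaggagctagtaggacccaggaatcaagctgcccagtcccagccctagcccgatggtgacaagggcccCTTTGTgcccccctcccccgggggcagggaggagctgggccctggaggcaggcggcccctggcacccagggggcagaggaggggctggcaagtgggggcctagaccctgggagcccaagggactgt
Art3: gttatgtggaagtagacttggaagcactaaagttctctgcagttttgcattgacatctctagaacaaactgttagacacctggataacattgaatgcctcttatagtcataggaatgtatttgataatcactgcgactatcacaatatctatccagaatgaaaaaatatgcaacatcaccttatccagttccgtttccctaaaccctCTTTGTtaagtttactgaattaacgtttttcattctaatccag
Cadm4: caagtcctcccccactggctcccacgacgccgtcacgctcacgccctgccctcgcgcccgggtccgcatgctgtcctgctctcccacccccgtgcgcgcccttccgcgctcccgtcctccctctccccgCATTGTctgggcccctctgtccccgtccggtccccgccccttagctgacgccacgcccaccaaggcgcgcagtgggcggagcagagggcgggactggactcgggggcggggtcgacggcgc
The listed windows of Gjc3, Mal and Zfp536 held neither word. Mag and Art3 each have 3 listed starts, of which 2 and 1 had a word. The 2 windows of Mag overlap and hold the same CTTTGT, so they are 1 site.

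Nerve-related genes beyond the list were grouped after their values were seen, so the group has no test. The 14 genes of this kind differed by 1.49 to 4.10. Of them, 10 passed with the mouse block and 5 whichever array was left out. Reln, which encodes the secreted matrix protein reelin, read 6.84, 7.07, 7.31 and 6.65 in CSP and 11.63, 11.09, 10.52 and 11.01 in Thy. CSP arrays lay below the array medians and Thy arrays far above, a difference of 4.10 ± 0.30 or 17.1-fold (limma, adjusted p = 7.69e-05). Reln passed the filter on dim values only through arrays outside CSP, and its fold is taken from dim CSP values. Ednrb, the endothelin receptor of neural crest derivatives, read 9.11, 8.15, 8.35 and 7.16 in CSP and 13.08, 12.15, 10.34 and 11.68 in Thy, and was higher by 3.62 ± 0.43. Dhh, the Hedgehog ligand of Schwann cells that organises the nerve sheath, read 7.64, 6.14, 7.67 and 7.96 in CSP and 11.69, 9.71, 10.22 and 10.81 in Thy, and was higher by 3.25 ± 0.48. Another Dhh probe set above the filter differed by only 0.37, with means of 8.08 in CSP and 8.45 in Thy. Dhh was the only one of 13 tested Hedgehog genes to pass. Plxnb3, a semaphorin receptor, was higher by 2.55 ± 0.38 and Gpr17, a receptor of the oligodendrocyte lineage, by 2.23 ± 0.33. Aspa, which cleaves N-acetylaspartate, was higher by 3.01 ± 0.51 (adjusted p = 0.0142), a call lost without the Thy array of mouse 3 (0.0565). In SSC the values of Reln (10.70 to 11.83), Ednrb (11.58 to 13.20) and Dhh (10.21 to 12.16) lay above all CSP arrays, while those of Gpr17 (7.09 to 8.50) did not. The SSC mean lay at or above the Thy mean in 6 of the 14 genes.

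Pericyte genes were the other large group higher in Thy. Of 17 listed genes 16 had a probe set, and all 16 passed the filter. Of these 8 were higher in Thy and 0 in CSP at an adjusted p under 0.05, against 0.903% of all genes. With the mouse block 5 of the 16 passed, against 0.487%. This list too was chosen with earlier results of these data known. The median difference was 1.5, and by mouse 0.94, 1.95, 1.86 and 0.81 in mice 3, 3b, 4 and 7. List means were 9.65 to 9.93 in CSP and 10.70 to 11.44 in Thy. The SSC arrays, at 9.50 to 9.88, lay in the range of CSP or just below it, unlike for the glial list.

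Rgs5, a brake on G protein signals and a standard pericyte marker, read 11.29, 11.97, 11.32 and 10.60 in CSP and 13.70, 14.52, 13.82 and 13.79 in Thy. The 4 Thy arrays lay close together above all CSP arrays, with a difference of 2.66 ± 0.27 (limma, adjusted p = 0.00132). Higd1b, a mitochondrial protein gene of mural cells, read 5.92, 6.54, 6.72 and 6.48 in CSP and 8.88, 8.81, 9.15 and 8.27 in Thy, and was higher by 2.36 ± 0.26. Its CSP values were below the array medians, so it passed the filter only through arrays outside CSP. Gucy1a1, a subunit of the nitric oxide receptor, was higher by 2.15 ± 0.31 and the adhesion molecule gene Mcam (CD146) by 1.95 ± 0.30. These 4 genes passed whichever array was left out and with the mouse block. Kcnj8, the pore of a vascular potassium channel, differed by 2.21 ± 0.41 (adjusted p = 0.0259). That call was lost without any array but the CSP and Thy arrays of mouse 7 (0.0750 to 0.110), and held with the mouse block. Vtn, which encodes the adhesive protein vitronectin, differed by 2.12 ± 0.43, the Notch target Heyl by 1.64 ± 0.30 and the receptor Notch3 by 1.42 ± 0.29. None of Vtn, Heyl and Notch3 passed with the mouse block (adjusted p = 0.117, 0.126 and 0.162). Vtn lost its call without any array of mice 3, 3b or 4 (0.0912 to 0.142). Heyl lost it without any of these but the CSP array of mouse 3 (0.0560 to 0.103), and Notch3 without any array but the Thy arrays of mice 3 and 7 (0.0650 to 0.159). Other defining pericyte genes did not pass, with Pdgfrb at 0.79 ± 0.34, Abcc9 at 1.57 ± 0.42 and Angpt2 at 0.88 ± 0.20 (adjusted p = 0.395, 0.130 and 0.0631). The pericyte proteoglycan gene Cspg4 read 11.24 to 12.27 in CSP and 11.23 to 12.14 in Thy.

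**Figure D3:**
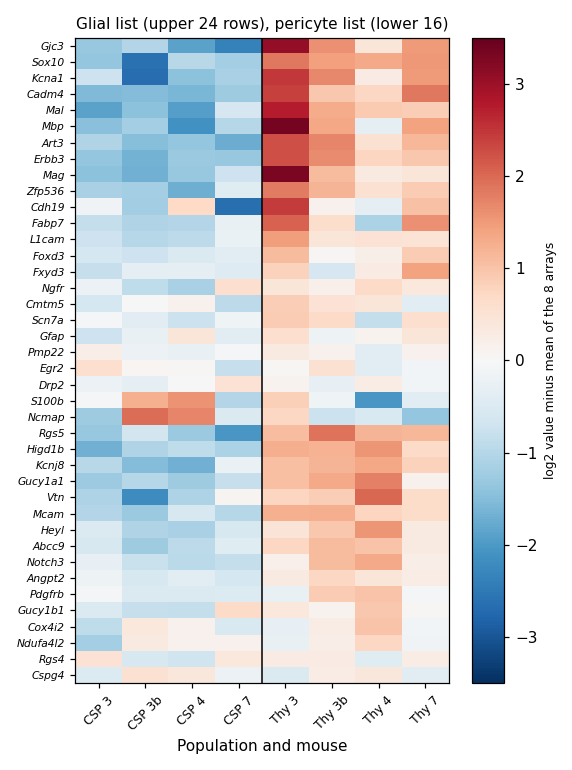
Log2 value minus the gene's mean over the 8 arrays (colour, blue low and red high) for the 24 tested glial genes and the 16 tested pericyte genes, each block ordered by the difference. Columns are the CSP and Thy arrays of mice 3, 3b, 4 and 7; glial genes are reddest in the Thy array of mouse 3, and the pericyte genes at the top of their block are red in all 4 Thy arrays.

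Genes of contractile cells of the vessel wall were higher in part. Of 15 listed smooth muscle genes, 14 passed the filter and 3 were higher in Thy, against 0.903% of all genes, with a median difference of 0.82 over the 15. Casq2, which stores calcium in muscle, read 7.94, 8.03, 7.85 and 7.37 in CSP and 8.97, 9.84, 9.92 and 9.64 in Thy, and was higher by 1.79 ± 0.24 (limma, adjusted p = 0.00547). Acta2, smooth muscle actin, differed by 1.16 ± 0.22 and the filament gene Des by 1.16 ± 0.22, but neither passed with the mouse block (0.155 and 0.160) and both calls depended on the arrays. Acta2 lost its call without any array but the CSP array of mouse 3 and the Thy array of mouse 7 (0.0543 to 0.114), and Des without any array of mice 3, 3b or 4 (0.0693 to 0.103). The SSC arrays read 12.44 to 13.17 for Acta2, above every CSP array. The contractile genes Myh11 and Tagln did not pass, at 1.54 ± 0.51 and 0.83 ± 0.25 (adjusted p = 0.244 and 0.193). Of the 14 tested genes 13 pointed to Thy, and Cnn1 stood at -0.11 ± 0.24.

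A further 8 genes of the vessel wall, grouped after their values were seen, differed by 1.21 to 2.75. Of them, 6 passed whichever array was left out and 5 with the mouse block. Itga7, a laminin-binding integrin of muscle and pericytes, read 7.72, 8.04, 8.14 and 8.22 in CSP and 10.43, 10.85, 11.77 and 10.09 in Thy, and was higher by 2.75 ± 0.37 (limma, adjusted p = 0.00547). The connexin gene Gja4 was higher by 2.02 ± 0.27 and Ackr1, a chemokine-binding receptor of venules and red cells, by 1.90 ± 0.28. Nr2f2, a nuclear receptor of veins and mesenchyme, differed by 1.75 ± 0.25 and passed whichever array was left out but not with the mouse block (0.0680).

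Of endothelial genes 1 passed. Of 18 listed endothelial genes, 12 passed the filter, and the median difference over all 18 was -0.34. Only Esam, a junction protein of endothelium, platelets and pericytes, passed, at 1.67 ± 0.28 (limma, adjusted p = 0.0142), but not with the mouse block (0.0910). It lost its call without any array of mice 3 and 3b or the CSP array of mouse 4 (0.0547 to 0.0654). The defining endothelial gene Pecam1 read 7.58 to 9.04 in CSP and 7.06 to 8.63 in Thy, and Cdh5 7.95 to 10.21 and 8.0 to 9.39. Emcn read 7.14 to 8.36 in CSP and 5.89 to 6.39 in Thy, and Robo4 6.57 to 8.55 and 5.24 to 5.94. Neither overlapped, but both were too dim to pass the filter and were not tested. Of the 18 genes, 6 pointed to Thy. List means were 8.10 to 8.82 in CSP and 7.76 to 8.26 in Thy. Most markers of blood cells were low in both populations. Single genes were not, such as Lyz2 at 8.26 to 9.45 in CSP and 8.49 to 8.98 in Thy. Mmp9, on the osteoclast list, read 8.0 to 12.12 in CSP and 10.14 to 11.70 in Thy. Neutrophil list means were 6.48 to 7.31 in CSP and 6.92 to 7.26 in Thy, with 0 of 4 tested genes called in limma and 1 at an unadjusted p under 0.05. Leukocyte and macrophage list means were 6.46 to 7.09 in CSP and 6.84 to 7.15 in Thy, with 0 of 10 tested genes called in limma and 2 at an unadjusted p under 0.05. None of 5 measured erythroid genes passed the filter. For skeletal muscle, 0 of 10 tested genes passed in limma and 2 had an unadjusted p under 0.05, with list means of 7.56 to 8.45 in CSP and 7.59 to 8.39 in Thy. How far the glial and mural cell markers move with the other genes higher in Thy was not tested.

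Fibroblast genes lay somewhat higher in Thy as a list, while 1 of them passed. Of 26 genes 23 had a probe set and passed the filter. The median difference was 0.28, and by mouse 0.29, 0.49, 0.37 and 0.16 in mice 3, 3b, 4 and 7. List means were 12.59 to 12.94 in CSP and 13.01 to 13.34 in Thy, without overlap. In 8 of the 23 genes every Thy array lay above every CSP array, against 4.29% of all genes, and 9 had an unadjusted p under 0.05, against 1496 of all 12516 genes tested. The gene that passed was Pi16, a marker of fibroblasts around vessels, at 9.83, 10.12, 9.17 and 11.32 in CSP and 13.06, 12.87, 12.75 and 12.89 in Thy. The Thy arrays were alike and the CSP arrays spread, that of mouse 7 highest, and the difference was 2.79 ± 0.40 (limma, adjusted p = 0.00727). Dpp4, a surface peptidase found with Pi16 on such fibroblasts, read 10.42, 9.80, 9.47 and 10.39 in CSP and 12.01, 11.44, 10.94 and 12.14 in Thy. Its difference of 1.61 ± 0.47 did not pass (0.169) but did with the mouse block (0.0225), and within the 4 mice it was 1.47 to 1.75. Cd248, a receptor of stromal cells and pericytes, stood at 1.18 ± 0.25 (0.0509) and Efemp1, a matrix glycoprotein, at 1.62 ± 0.41 (0.109). Smoc2, a matricellular protein gene, pointed to CSP at -0.98 ± 0.26 (0.130). Dcn and Lum, small proteoglycans of all such stroma, read 15.07 to 15.25 and 13.83 to 14.32 over both populations.

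Genes higher in CSP were few, and several encode secreted or matrix proteins. Tnmd, the tendon membrane glycoprotein tenomodulin, read 13.64, 13.72, 13.81 and 13.44 in CSP and 12.41, 12.50, 12.41 and 12.59 in Thy. The arrays of each population lay close together without overlap, and Tnmd was higher in CSP by 1.18 ± 0.18 (limma, adjusted p = 0.00816). It was the only gene of 16 on the tendon and ligament list to pass, and 13 of the 16 pointed to CSP with a median of -0.48. Bmper, a secreted regulator of BMP signals, read 11.77, 11.16, 11.19 and 11.10 in CSP and 9.69, 10.28, 9.37 and 10.06 in Thy, a difference of -1.45 ± 0.22 (adjusted p = 0.00828). Tnmd and Bmper passed whichever array was left out, but not with the mouse block (0.0804 and 0.0909).

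Col22a1, a collagen of tissue junctions such as that of muscle and tendon, read 10.61, 11.31, 11.07 and 10.75 in CSP and 8.86, 8.06, 9.08 and 9.05 in Thy. Within mice the difference ran from -3.25 to -1.70, and that over all arrays, -2.18 ± 0.38 (limma, adjusted p = 0.0193), held with the mouse block (0.0311). Other Col22a1 probe sets above the filter differed by -2.49 and -0.12. Smoc1, a matricellular regulator of BMP signals, read 10.22, 10.63, 10.83 and 10.70 in CSP and 8.52, 8.38, 8.43 and 9.26 in Thy, a difference of -1.95 ± 0.32 (0.0128). The serine protease gene Htra4 differed by -2.33 ± 0.41 (0.0193), and like Smoc1 it held with the mouse block. Car3, a carbonic anhydrase of muscle and fat, read 9.90, 11.33, 11.46 and 10.50 in CSP and 8.99, 7.33, 6.56 and 8.79 in Thy, and Stk26, a kinase, 10.56, 12.05, 12.16 and 10.41 in CSP and 8.94, 8.61, 8.11 and 9.25 in Thy. In both the gap was wide in mice 3b and 4 and narrow in mice 3 and 7, and the differences of -2.88 ± 0.53 and -2.57 ± 0.43 did not pass with the mouse block (0.141 and 0.0889). The EGF-domain matrix gene Egfl6, the homeobox gene Hoxd9 and the secreted protein gene Fibin differed by -1.42 ± 0.26, -1.07 ± 0.21 and -1.0 ± 0.19 and did not pass with the mouse block either (0.0799, 0.128 and 0.164). Car3 (0.0551 to 0.0982) and Stk26 (0.050 to 0.0584) lost their calls without any array of mice 3b or 4, and Fibin (0.0550 to 0.100) without any of mice 3, 3b or 4. Egfl6 lost it without either array of mouse 3 or 4 or the Thy array of mouse 3b (0.0676 to 0.0982), and Hoxd9 without any array but the Thy array of mouse 7 (0.0535 to 0.107). Col22a1 lost it without the CSP array of mouse 3, 3b or 4 or the Thy array of mouse 3b (0.0548 to 0.0735), and Htra4 without the CSP array of mouse 3b, 4 or 7 or the Thy array of mouse 3 (0.0515 to 0.0731). Smoc1 lost its call without the CSP array of mouse 3b (0.0531) or 4 (0.0502).

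Cartilage matrix genes pointed to CSP, but in some mice much more than in others. All 21 listed genes were measured and passed the filter, and 20 of them were lower in Thy, with a median difference of -2.28. None passed in limma without a mouse block, and 10 had an unadjusted p under 0.05. With the block 5 of the 21 were higher in CSP, against 0.0879% of all genes. List means were 9.40, 13.08, 13.12 and 10.20 in the CSP arrays of mice 3, 3b, 4 and 7 and 8.38, 9.54, 9.43 and 9.30 in the Thy arrays. The CSP arrays of mice 3b and 4 stood apart from those of mice 3 and 7. Among the Thy arrays that of mouse 3 was the lowest, and those of the other mice lay close together. The median of the list accordingly was -3.44 and -3.91 in mice 3b and 4 and -0.95 and -0.74 in mice 3 and 7. Of the SSC arrays, that of mouse 4 was at 13.18 and the others were at 9.94 to 10.61. The arrays with high values came from 1 mouse with and 1 without JUN. Mice 3 and 7 also have an SSC array whose title carries a date, and that of mouse 4 does not. A term for this was chosen after the values were seen. It placed mouse 3b, which has no SSC array, with mouse 4, so among the CSP and Thy arrays it equals the split above. With it 7 of the 21 genes were higher in CSP, against 0.224% of all genes, which is no separate support for a difference. The cause of the split was not tested.

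Cytl1, a secreted protein of chondrocytes, read 10.68, 13.24, 13.75 and 10.70 in CSP and 6.76, 8.17, 8.57 and 8.86 in Thy. No array overlapped, and the difference of -4.00 ± 0.86 had an adjusted p of 0.0536 in limma and 0.0250 with the mouse block. Col2a1, the main cartilage collagen, read 13.42, 15.33, 15.38 and 14.22 in CSP and 11.33, 13.34, 13.44 and 12.69 in Thy. Within mice the difference ran from -2.09 to -1.53, and that of -1.89 ± 0.58 over all arrays passed with the block (0.0190) and not without (0.205). Matn3, a cartilage matrilin, read 7.85, 11.33, 11.62 and 7.86 in CSP and 5.54, 5.89, 6.27 and 5.55 in Thy, with -3.85 ± 0.93 at 0.0915, and 0.0470 with the block. Col9a1 stood at -3.06 ± 0.75 and Cnmd, the cartilage inhibitor of vessel growth, at -3.56 ± 0.99, at 0.0352 and 0.0386 with the block. Matn1, another matrilin, read 7.51, 13.07, 13.33 and 8.95 in CSP and 6.54 to 7.82 in Thy, and did not pass in either fit. Sox9, the transcription factor of chondrocytes, read 8.82, 10.51, 10.40 and 8.29 in CSP and 8.0, 9.16, 8.53 and 8.28 in Thy (-1.01 ± 0.60, adjusted p = 0.524). None of the 13 tested chondrocyte regulators passed in limma, and 2 had an unadjusted p under 0.05.

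**Figure D4:**
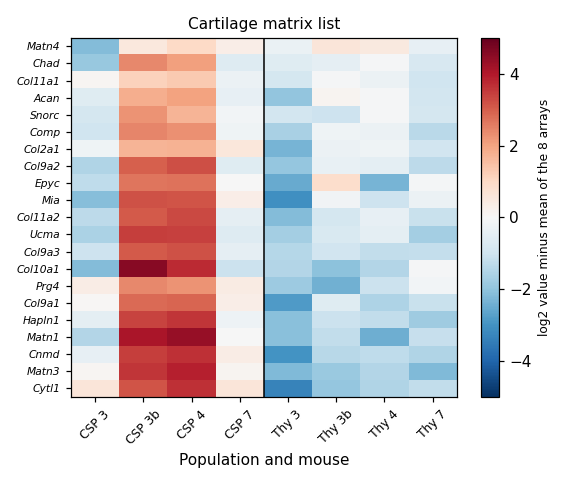
Log2 value minus the gene's mean over the 8 arrays (colour) for the 21 cartilage matrix genes, ordered by the difference between Thy and CSP. Columns are the CSP and Thy arrays of mice 3, 3b, 4 and 7; the CSP arrays of mice 3b and 4 are red in nearly all genes, and those of mice 3 and 7 are mostly pale.

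In the lists of bone formation, signalling and growth that follow, 0 or 1 gene each was called, so these counts give no result about the lists. Over all genes tested 0.991% were called, and 1496 of 12516 had an unadjusted p under 0.05. None of the 16 tested osteoblast and mineralisation genes passed in limma, 2 had an unadjusted p under 0.05, and the median was -0.11 over 21 measured. Of the 34 tested Hox and limb identity genes, 7 had an unadjusted p under 0.05 in limma, and Hoxd9 was higher in CSP. Of 24 tested BMP genes (5 at an unadjusted p under 0.05) only Bmper was called, higher in CSP. Of 35 tested Wnt genes (6) only Wnt2 was called, higher in Thy. Col18a1, the basement membrane collagen that yields endostatin, differed by 1.81 ± 0.32 (limma, adjusted p = 0.0202), a call lost without either array of mouse 3 or 4 or the Thy array of mouse 3b (0.0552 to 0.0906). Of 33 tested axon guidance genes 15 had an unadjusted p under 0.05 in limma, and of 19 chemokine and cytokine genes 6. Of the 33 guidance genes 20 pointed to Thy and 13 to CSP. The guidance gene Sema3b (1.58 ± 0.33) and the cytokine gene Il34 (1.24 ± 0.25) passed, but not with the mouse block (adjusted p = 0.119 and 0.190). Sema3b lost its call without any array of mice 3 and 3b, the CSP array of mouse 4 or the Thy array of mouse 7 (0.0601 to 0.159), and Il34 without any of mice 3, 3b or 4 (0.0749 to 0.142). In limma no gene passed of 24 tested metalloproteinases and inhibitors (8 at an unadjusted p under 0.05), 15 IGF genes (5), 18 S phase genes (4), 19 mitosis genes (4), 15 TGF-beta genes (3) or 6 PDGF genes (2). The same held for 15 small proteoglycan genes (1), 12 heat shock genes (1), 20 FGF genes (0) and 22 AP-1 and immediate early genes (0).

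**Figure D5:**
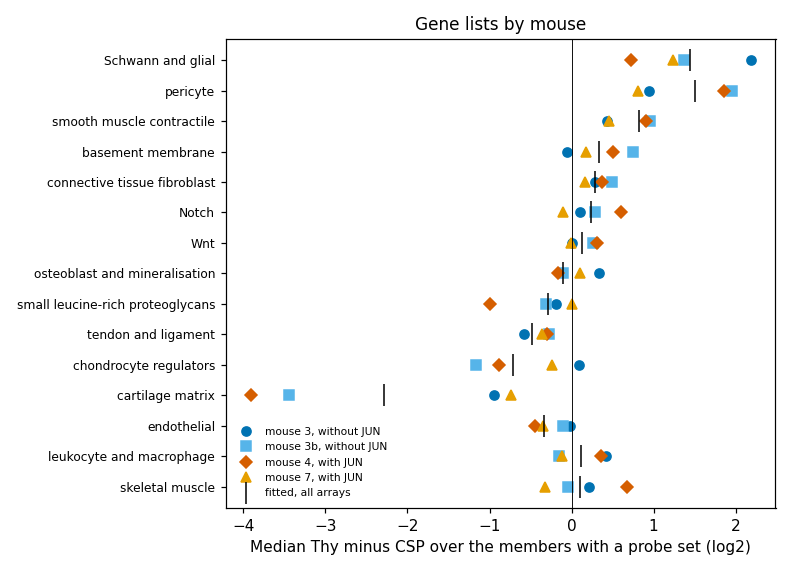
Median difference between Thy and CSP (log2) over the measured members of 15 gene lists, within each mouse (coloured symbols) and as fitted over all arrays (black bars). The glial and pericyte lists lie above 0 in all 4 mice, and the cartilage matrix list lies far below 0 in mice 3b and 4 and near -0.95 and -0.74 in mice 3 and 7.

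Whether the difference between Thy and CSP depended on JUN induction was tested over the mice of each arm. No gene passed (0 of 12516, 0.0%, with 155 at an unadjusted p under 0.05 and a lowest adjusted p of 1.0 in limma). The design has 2 arrays a group, which limits the precision of this test. On simulated data it recovered 0% of 200 genes given a log2 change of 1 or 2. The lack of calls therefore does not show that no gene depends on JUN. The lowest p-values belonged to Nsun7, an RNA methyltransferase-like gene, and Arhgef4, a guanine nucleotide exchange factor. Nsun7 read 6.46, 5.80, 6.37 and 6.20 in CSP and 6.01, 5.57, 8.76 and 8.01 in Thy, so only the Thy arrays with JUN were high. Its difference was -0.34 without and 2.10 with JUN, an interaction of 2.44 ± 0.50. The potassium channel gene Kcnd3 stood at -0.98 without and 1.96 with JUN, and Arhgef4 at 0.74 and -1.22. Further genes of low p were Shc4 (2.35 and -0.19), Cldn19 (1.39 and -0.95), Zfp934 (-1.02 and 0.64), Zbtb46 (-0.85 and 1.29) and Btbd9 (0.91 and -0.75). Of the 124 genes that differed between Thy and CSP, 2 had an unadjusted interaction p under 0.05. Esam differed by 2.27 without and 1.08 with JUN, and Mag by 3.76 and 1.40. In the arrays without JUN alone 21 genes passed (0.168%), and in those with JUN alone 4 (0.032%), all higher in Thy. These counts of 2 arrays against 2 do not show that the arms differ.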

How the data were processed

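RNA of FACS-sorted cells was hybridised to 1 array per sample. The authors deposited log2 expression values per probe set. The submitters' processing notes name RMA, with software and version not given in the sources used here. RMA forces arrays to 1 distribution, so a change in total RNA is not visible, and it compresses differences of dim genes. Values ran from 3.20 to 15.99, as log2 values do. The number of arrays limits the precision.

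The table has 45101 probe sets, including 64 controls, which were dropped. The platform annotation names 1 symbol for 34945, several for 932 and none for 9160, and 34741 matched a gene table by Entrez identifier. Probe sets with 1 symbol and above the array median in at least 2 of the 12 arrays were kept, and the one of highest mean was used per gene (12516 of 18193 genes). The filter counts the compared arrays, so a gene below the median in all arrays of 1 population can pass through the others. Without the filter 104 genes passed, 93 higher in Thy and 11 in CSP. Levels of different genes are not compared. Populations were compared with moderated two-sided tests (limma 3.58.1, R 4.3.3) in a model of population and induction over 12 arrays, with Benjamini-Hochberg adjustment over all genes tested. The JUN dependence came from the 6 group means. Both steps were tested on simulated data with 200 changed genes. The population comparison recovered 19.5% of them at a log2 change of 1 and 91% at 2. The test of JUN dependence recovered 0% at either size.

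Arrays pair by the mouse number in the titles, taken as the same animal. Deviations of CSP and Thy arrays of a mouse correlated at 0.0916 in mice 3 and 3b and -0.214 in mice 4 and 7, and a fit with mouse as a fixed block was run on the 8 arrays. P-values measure the spread between these arrays.

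The members, lists and tests were chosen with earlier results of these data known. Named genes are, in each direction, up to 15 with the largest difference among those past the threshold without overlap, list members that passed or had low p, and the 8 of lowest interaction p. Predicted models were not named by size. Alternatives changed the block, the samples in the fit, the filter, the probe set rule, the normalization and the prior. Others left out arrays or mice, or compared the populations within each arm.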

Additional observations from a re-analysis of the deposited data

Results flagged for a closer look

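Among 124 sets of 4 arrays checked, 10 had 1 array whose gap to the nearest of the others took an unusually large share of the range, and chance would pick out about 1 in 20. Of these, 6 concern the CSP array of mouse 7. There Thy1 read 9.63, against 8.04, 8.09 and 8.11 in the other CSP arrays, and the mean of the pericyte list was 9.93 against 9.65 to 9.69. In the same array the skeletal muscle mean was 8.45 against 7.56 to 7.65 and the elastic fibre mean 13.15 against 13.01 to 13.03. Its metalloproteinase mean of 9.70 and PDGF mean of 10.0 lay below the other CSP arrays, at 10.01 to 10.07 and 10.52 to 10.60. Without this array 117 genes passed between Thy and CSP, 98 higher in Thy and 19 higher in CSP.

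The other 4 were single genes. Akr1c18 read 11.03 in the Thy array of mouse 3b, against 12.56 to 12.86 in the other Thy arrays. Smoc1 read 9.26 in the Thy array of mouse 7, against 8.38 to 8.52. Bmper read 11.77 in the CSP array of mouse 3, against 11.10 to 11.19. Egfl6 read 9.41 in the Thy array of mouse 4, against 9.94 to 10.02.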

How the results depend on the processing

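Of 124 genes that passed (113 higher in Thy, 11 in CSP), none reversed direction among 3222 values under the alternatives. Their CSP and Thy arrays did not overlap, so fits to part of these arrays could hardly have reversed them. The mouse block gave 72 (61 higher in Thy). The contrast within the arm without JUN gave 21 (21 and 0) and within the arm with JUN 4 (4 and 0), with the spread of all 12 arrays. Leaving out 1 array gave 52 to 128 (49 to 103 higher in Thy and 3 to 25 in CSP), the fewest without the CSP array of mouse 4. Without mouse 3 the count was 17 (17 and 0), without mouse 3b 30 (29 and 1), and those higher in CSP were 6 without mouse 4. Without mouse 7, 73 were higher in Thy and 22 in CSP. Added after seeing the data, the CSP and Thy arrays of mice 3 and 7, with all SSC arrays kept, gave 2 (2 and 0). Those of mice 3b and 4, again with all SSC arrays, gave 19 (12 and 7). A term for mice with a dated SSC title gave 28 higher in CSP. The mean over probe sets gave 20 higher in CSP. Other counts, with a random mouse term, the 8 arrays alone, 6 group means, other filters, cyclic loess or another prior, were 86 to 130. S100b turned to 0.05 without mouse 4 and 0.77 in mice 3 and 7, and Ncmap to 0.56 in mice 3 and 7. JUN dependence gave 0 genes in all 11 alternatives, with 118 to 656 at an unadjusted p under 0.05. The causes were not tested. The number of arrays, and RMA values of dim genes, limit what can be seen.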

Other observations

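Among genes higher in Thy that no list held, Msln and Upk3b are markers of mesothelium, the lining of body cavities. They were chosen after their values were seen. Msln read 6.38, 6.44, 6.36 and 7.11 in the CSP arrays of mice 3, 3b, 4 and 7 and 8.36, 7.42, 8.97 and 8.38 in the Thy arrays, and Upk3b 7.33, 6.95, 6.74 and 7.77 against 10.17, 8.70, 9.10 and 9.60. The differences were 1.71 ± 0.33 and 2.19 ± 0.42 in limma (adjusted p = 0.0328 and 0.0308), with 0.0750 and 0.0197 in the fit with the mouse block. The call of Msln was lost without any array but the Thy array of mouse 3b, and that of Upk3b without any array but that one and the CSP array of mouse 7 (up to 0.130 and 0.119).

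Also named after their values were seen, the cell cycle gene Ccnd1 (0.89 ± 0.19), the integrin genes Itga6 (1.12 ± 0.23) and Itgb3 (1.29 ± 0.26) and the protease gene Plau (1.18 ± 0.21) were higher in Thy in limma (adjusted p = 0.0468, 0.0396, 0.0373 and 0.0218), and none of the 4 passed with the mouse block (0.190, 0.111, 0.163 and 0.0910). Their calls were lost in 8, 8, 7 and 5 of the 8 fits that each left out 1 array. Of 90 other probe sets of 54 genes that differed, counting those above the filter on dim values, 89 pointed the same way as the probe set used, and 1, of Cd151, pointed the other way at -0.14. Some of the 89 differences were small, such as 0.37 for Dhh and -0.12 for Col22a1. Of 41 others below the filter, 31 pointed the same way and 10 the other.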
